A study of Mus musculus with 18 samples.

Results

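Livers lacking cytochrome P450 reductase in hepatocytes were compared with control livers in mice fed a synthetic diet made with canola oil. The comparison took the 3 arrays labelled as canola-fed knockout livers and the 3 labelled as canola-fed control livers, 6 of the 18 arrays of the series. Knockout mice were Alb-Cre+/-/POR-lox+/+, so that the albumin promoter drove Cre recombinase in hepatocytes, and control mice were Alb-Cre-/-/POR-lox+/+. Both genotypes therefore carried floxed reductase alleles, and reductase of other liver cells was not targeted. All were male and 12 weeks old at collection, started the diet at 4 weeks, ate it for 8 weeks and went without food for 4 h before killing. Each array carried equal amounts of RNA from 3 livers of 1 genotype and diet, 9 mice per group, so the pool is the replicate and differences between single mice are not seen. The other arrays came from knockout and control mice on the same diet made with lard or with fish and fungal oils. Fat made up 7% of each diet by the labels of the samples, but 6% by the description of the series.

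Cytochrome P450 reductase passes electrons from NADPH to the microsomal P450 enzymes, which in liver oxidise drugs, steroids, bile acids and fatty acids. Without it these enzymes are present but largely inactive. Many genes of xenobiotic handling are switched on by the nuclear receptors CAR and PXR, whose ligands include compounds that P450 enzymes normally remove. Antioxidant genes are under the transcription factor NRF2.

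Expression was read as log2 values from 12578 genes, and array medians of all 18 arrays lay between 5.229 and 5.286, so a value near 5.3 is dim and a difference from such a level may be understated. Arrays of 1 group correlated at 0.99283 to 0.99691. Por itself is not analysed here, so the deletion was not checked on its target in any pool. For 7 of the 8 genes called below, knockout replicate 3 stood nearer to the controls than the other knockout pools did. The main counts are also given without it. Over all genes tested this pool was the lowest of the knockouts in 35.8% and the highest in 41.5%. It was singled out on its measured values, so the values without it describe the other 5 pools and are no separate evidence.

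On canola oil 8 genes passed the test, 0.0636% of the genes tested (limma, Benjamini-Hochberg adjusted p below 0.05). Of these, 7 rose in knockout livers (0.0557%) and 1 fell (0.00795%). They were led by Cyp2b10 and Cyp2c55, 2 P450 genes, followed by the glutathione transferase gene Gstm3, the carboxylesterase gene Ces2a and the lipoprotein lipase gene Lpl. All 8 had knockout pools that did not overlap the control pools, which held for 1419 of all genes (11.3%), and 4 changed at least 2-fold. An unadjusted p below 0.05 was reached by 772 genes (6.14%), 561 higher (4.46%) and 211 lower (1.68%). If no gene differed, a share of 0.05 would be expected below that threshold, so these counts do not mark single genes as changed. On the other diets the adjusted test called 113 higher (0.898%) and 11 lower genes (0.0875%) on lard, and 32 higher (0.254%) and 5 lower genes (0.0398%) on fish/fungal oil. The count past the adjusted test depended on single pools: it was 4 without knockout replicate 1, 3 without knockout replicate 2, 5 without control replicate 1, 11 without control replicate 2 and 3 without control replicate 3. Fitted on the 6 canola arrays alone, 1 gene passed, Cyp2c55. Other settings called more: 81 higher and 9 lower genes with array weights, and 46 higher and 6 lower with the replicate number as a block in the fit of the 6 canola arrays. All 8 genes were among those called under both of these settings.

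Cyp2b10, the P450 classically induced through CAR, had 11.08, 10.57 and 8.14 in knockout pools 1, 2 and 3, against 5.44, 6.02 and 5.47 in control pools 1, 2 and 3 (log2 expression). All knockout pools were above all control pools, with pool 3 between the other knockouts and the controls. The log2 difference was 4.28 ± 0.49 (SE, n = 3 pools each), 19.5-fold, with an adjusted p of 0.00060 in limma. Without knockout replicate 3 it was 5.18, or 36.2-fold. The SE, here and below, comes from the fit of all 18 arrays and not from the canola pools alone. Fitted on the 6 canola arrays alone, Cyp2b10 did not pass (adjusted p = 0.125 in limma). The gene's other probe sets, which may also bind transcripts of close relatives, gave log2 differences of 6.41 and 6.42.

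Cyp2c55, a P450 also known to respond to CAR and PXR, had 11.21, 11.13 and 9.60 in knockout pools, against 7.16, 6.73 and 6.90 in control pools. Its log2 difference of 3.72 ± 0.34 (SE) was 13.2-fold and carried the smallest adjusted p of the comparison, 4.26e-05. Gstm3, a mu class enzyme that joins glutathione to electrophiles, had 13.22, 12.12 and 11.64 in knockout pools and 9.76, 10.49 and 9.12 in control pools (2.54 ± 0.35, 5.81-fold, adjusted p = 0.0049). Here the control pools themselves spanned more than a log2 unit. Its probe set can be shared with related transcripts, and the other probe set for the gene gave 2.61.

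Ces2a, a hydrolase of esters and amides, had 13.09, 13.05 and 12.58 in knockout pools, against 12.08, 11.70 and 11.78 in control pools (1.05 ± 0.15, 2.07-fold, adjusted p = 0.0056). Lpl, which releases fatty acids from circulating triglyceride and is normally low in adult hepatocytes, had 10.70, 10.51 and 9.99 in knockout pools and 9.56, 9.42 and 9.30 in control pools. Its log2 difference was 0.97 ± 0.15 (1.96-fold, adjusted p = 0.013), and a dimmer probe set gave 1.17. Pool 3 was again the lowest of the knockouts for both genes and yet above every control. Both genes lost the call in the fit of the 6 canola arrays and when knockout replicate 1, knockout replicate 2 or control replicate 3 was left out. Lpl is also a marker of fat cells, whose defining genes Adipoq and Plin1 were not among the genes tested, and of the 7 fat cell markers tested 4, Lpl included, were above 0, with a median of 0.07 and 1, Lpl itself, higher at an unadjusted p below 0.05. Their mean level was 8.74, 8.60 and 8.40 in knockout pools and 8.33, 8.48 and 8.22 in control pools. In whole liver, more cells of a type and more RNA per cell cannot be told apart, and the part of other cells in the Lpl difference was not tested.

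Rragd, a Rag GTPase that helps bring the kinase complex mTORC1 to the lysosome, had 6.21, 6.97 and 6.31 in knockout pools and 5.66, 5.64 and 5.56 in control pools (0.88 ± 0.16, adjusted p = 0.046). Its call was lost under 8 of 16 alternatives, among them centring of the arrays (adjusted p = 0.059) and a fit with no intensity trend (0.052). Golm2, a Golgi membrane protein gene, had 6.48, 6.44 and 6.19 in knockout pools and 5.50, 5.70 and 5.33 in control pools (0.86 ± 0.14, adjusted p = 0.013). Both were dim in controls, and their still dimmer other probe sets gave log2 differences of 0.09 and 0.08 for Rragd and 0.08 for Golm2. Gpc1, which encodes the cell surface heparan sulfate proteoglycan glypican-1, was the gene that fell. It had 6.44, 6.23 and 6.64 in knockout pools and 7.19, 7.11 and 7.09 in control pools, and it fell by 0.69 ± 0.11 on the log2 scale (adjusted p = 0.013). Golm2 and Gpc1 each lost the call under 6 alternatives, which left out a single pool or used the canola arrays alone, with adjusted p-values up to 0.138 and 0.187.

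**Figure D1:**
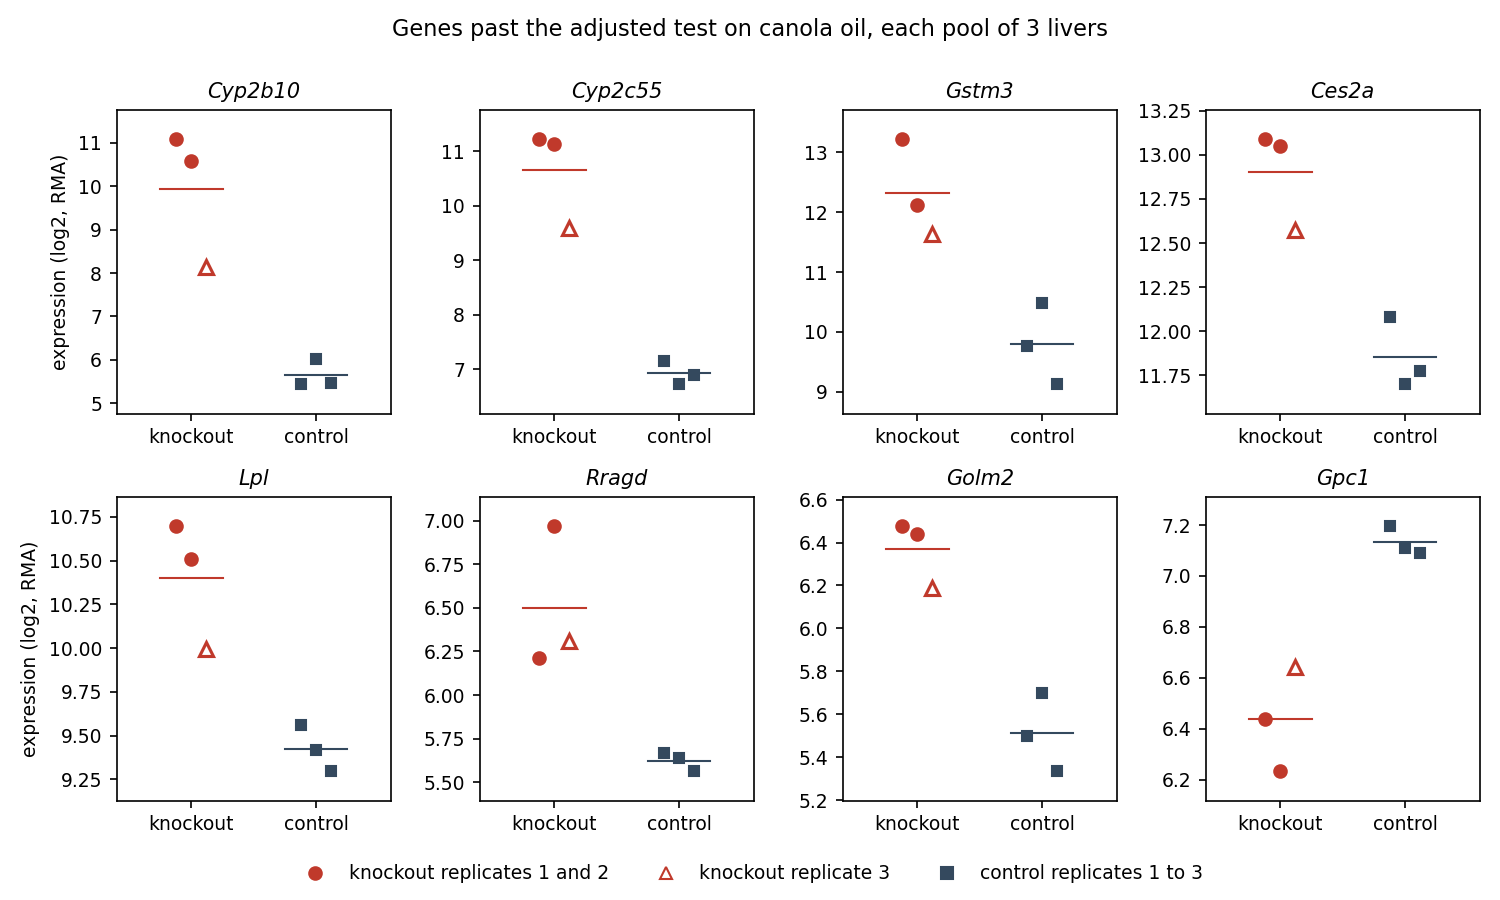
Log2 expression of the 8 genes that passed the test on canola oil, 1 point per pool of 3 livers with knockout pools left of control pools, horizontal lines at the means and a separate vertical scale for each gene. No knockout point overlaps the control points, and knockout replicate 3 (open triangle) is the knockout pool nearest to the controls in 7 of the 8 genes.

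Knockout replicate 3 was the knockout pool nearest to the controls in 7 of these 8 genes, with Rragd as the exception. As a share of the mean log2 difference shown by knockout pools 1 and 2, its own difference was 48.2% for Cyp2b10, 62.8% for Cyp2c55, 64.3% for Gstm3 and 71.8% for Golm2. These differences were taken from the mean of all control pools. Control replicate 3 was itself the lowest control for Gstm3 and Golm2, and the middle one for Cyp2b10 and Cyp2c55. Whether the pools numbered 3 share a lower level of such genes was not tested. Knockout pools on the other diets ran from 10.38 to 11.01 for Cyp2b10 on lard and from 10.82 to 11.52 on fish/fungal oil. The Cyp2b10 level of 8.14 in canola pool 3 was thus below all other knockout pools of the series. What sets this pool apart was not tested.

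Without knockout replicate 3, 28 genes passed (0.223%), 23 higher (0.183%) and 5 lower (0.0398%). They held all 8 genes above and 20 more (at an unadjusted p, 851 genes or 6.77%, of which 4.65% higher and 2.11% lower). Of the 20, 16 had pools that did not overlap with replicate 3 included, against 11.3% of all genes. The 20 were chosen for differing between the other knockout pools and these same controls. Their lack of overlap thus follows largely from that choice and is no separate evidence. Slco1a4, an uptake transporter of organic anions, had 10.94, 10.82 and 9.56 in knockout pools and 9.30, 8.92 and 8.08 in control pools. Its log2 difference was 1.67 with all pools (adjusted p = 0.074) and 2.11 without replicate 3 (adjusted p = 0.0024). Abcb1a, an export pump also called P-glycoprotein, had 7.18, 7.55 and 6.10 in knockout pools and 5.80, 6.23 and 5.64 in control pools, so that pool 3 lay among the controls. Its difference was 1.06 with all pools (adjusted p = 0.26) and 1.48 without replicate 3 (adjusted p = 0.0017).

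Nebl, which encodes nebulette, an actin-binding protein best known from heart muscle, had 6.12, 5.94 and 4.45 in knockout pools and 3.69, 4.12 and 4.14 in control pools. Its difference was 1.52 with all pools (adjusted p = 0.070) and 2.05 without replicate 3 (adjusted p = 6.16e-06). Levels in the controls were below the array medians, and the gene's other, dimmer probe sets gave -0.10 and 0.12. Serpinb1a, an inhibitor of neutrophil proteases, differed by 1.63 with all pools and 1.94 without replicate 3. For Dop1b these values were 1.05 and 1.27, and for Gpx7, a glutathione peroxidase of the endoplasmic reticulum, 0.69 and 0.94.

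The 4 genes that passed as lower only without replicate 3 were Sdr9c7, Snx17, Cyp2d40 and Slc17a2. Sdr9c7, a short-chain dehydrogenase gene, had 7.04, 7.27 and 8.49 in knockout pools and 8.43, 7.87 and 8.86 in control pools. Pool 3 was inside the control range, and the log2 difference was -0.79 with all pools and -1.23 without replicate 3 (adjusted p = 0.013). Snx17, a sorting nexin of endosomal recycling, differed by -0.56 with all pools and -0.73 without replicate 3. The values were -0.55 and -0.64 for Cyp2d40 and -0.45 and -0.55 for the anion transporter gene Slc17a2. Named after their values were seen, Idh2, which makes NADPH in mitochondria, and the innate immune kinase gene Ikbke passed without replicate 3, with log2 differences of 0.77 and 0.78.

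**Figure D2:**
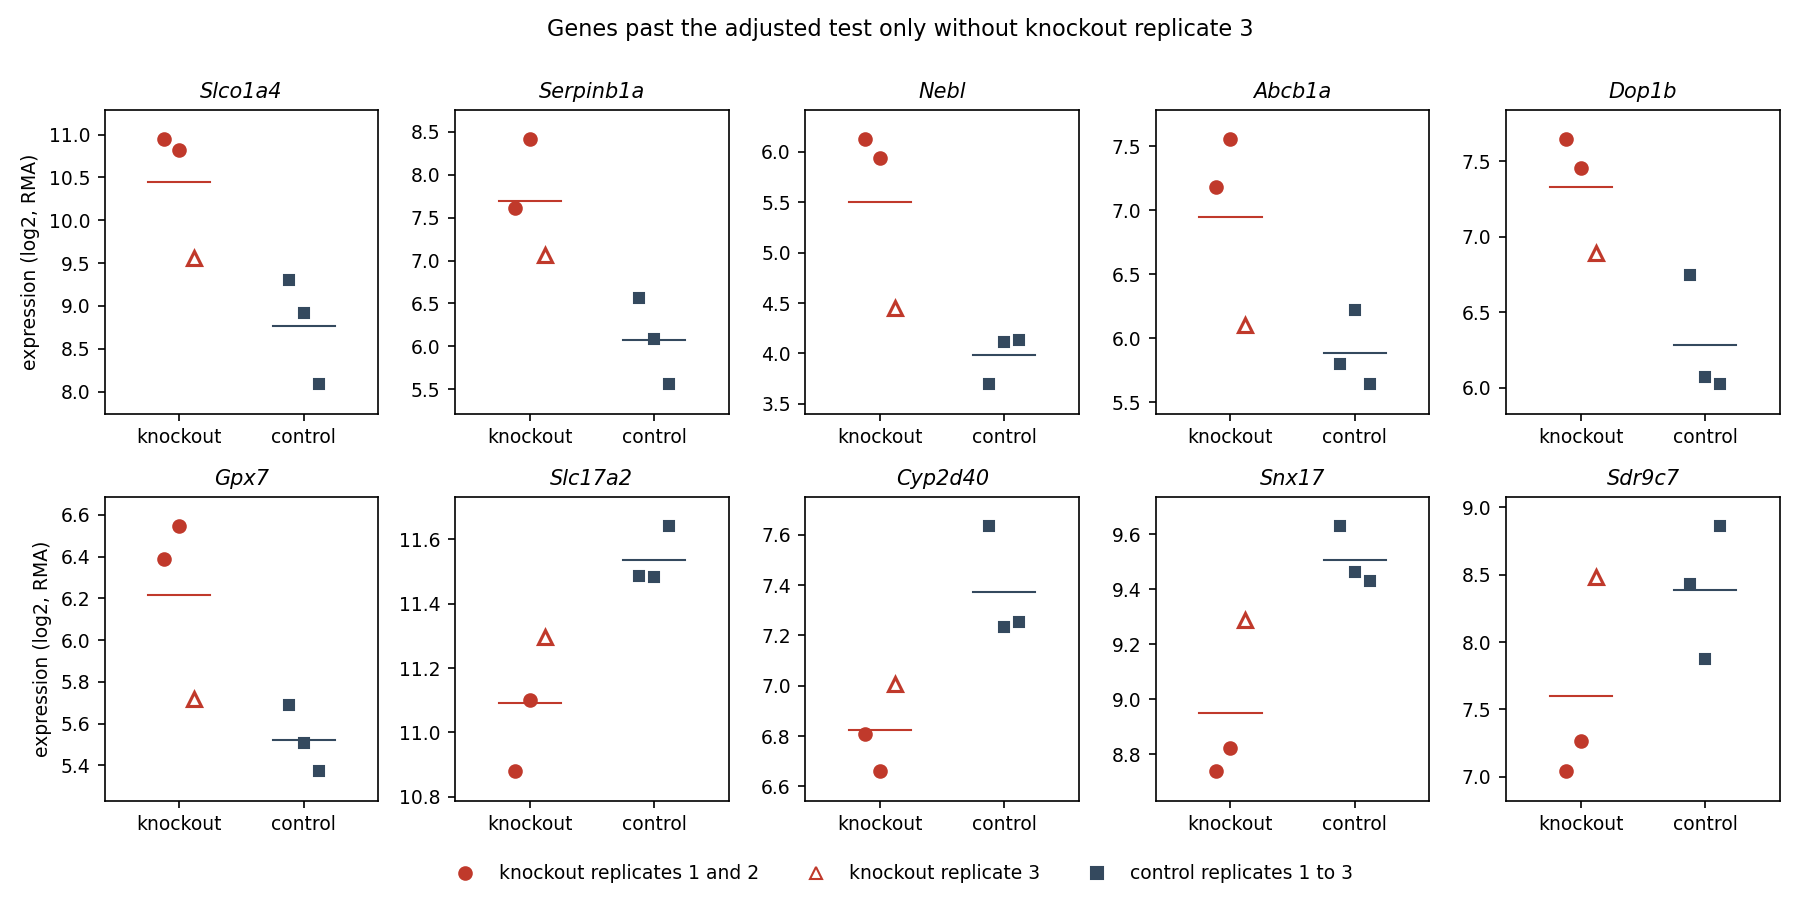
Log2 expression of the 6 largest rises and the 4 falls among genes that passed the test only without knockout replicate 3, 1 point per pool, knockout pools left of control pools, lines at means over 3 pools, with a separate vertical scale per gene. Knockout replicate 3 (open triangle) lies within the control range for Abcb1a and Sdr9c7 and a little above it for Slco1a4.

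The known targets of CAR and PXR gave the largest median of the 41 pathway lists. Of 42 listed genes 34 were tested, and 32 of these were above 0 against 53.7% of all genes. Their median log2 difference was 0.46, against 0.01 over all genes tested, and 0.61 without knockout replicate 3. By the adjusted test 4 passed, all higher (Cyp2c55, Cyp2b10, Gstm3 and Ces2a), and without replicate 3, 9 passed. At an unadjusted p below 0.05, 26 were higher and 0 lower, and 16 had pools that did not overlap, all higher, where 7.04% of all genes were higher and 4.24% lower with no overlap. Without replicate 3, 32 were above 0 against 51% of all genes.

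The mean log2 level over the 34 targets was 11.26, 11.18 and 10.59 in knockout pools and 10.37, 10.32 and 9.96 in control pools. The pool numbered 3 was thus the lowest in both genotypes. Knockout replicate 3 had the lowest knockout value for 33 of the 34 targets, and its mean still lay above that of each control pool. The exception among the targets was Gstm4, with 9.79, 9.16 and 9.22 in knockout pools. The share of lowest values was 35.8% over all genes tested and 70.3% over genes higher in knockouts on lard and fish/fungal oil. The pool was singled out for weak changes, so a low rank among genes that rose follows in part from that choice. Cyp3a11 and Cyp3a25, abundant drug-oxidising P450s named after their values were seen, differed by 0.32 and 0.36 with all pools (adjusted p = 0.065 and 0.093) and by 0.38 and 0.45 without replicate 3. Alas1, the rate-limiting enzyme of haem synthesis, and the stress response gene Gadd45b were the 2 targets below 0, with differences of -0.53 and -0.11. For Alas1 the pools spread widely, with 11.17, 11.85 and 10.31 in knockouts and 11.91, 11.81 and 11.19 in controls, and the difference was -0.13 without replicate 3.

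**Figure D3:**
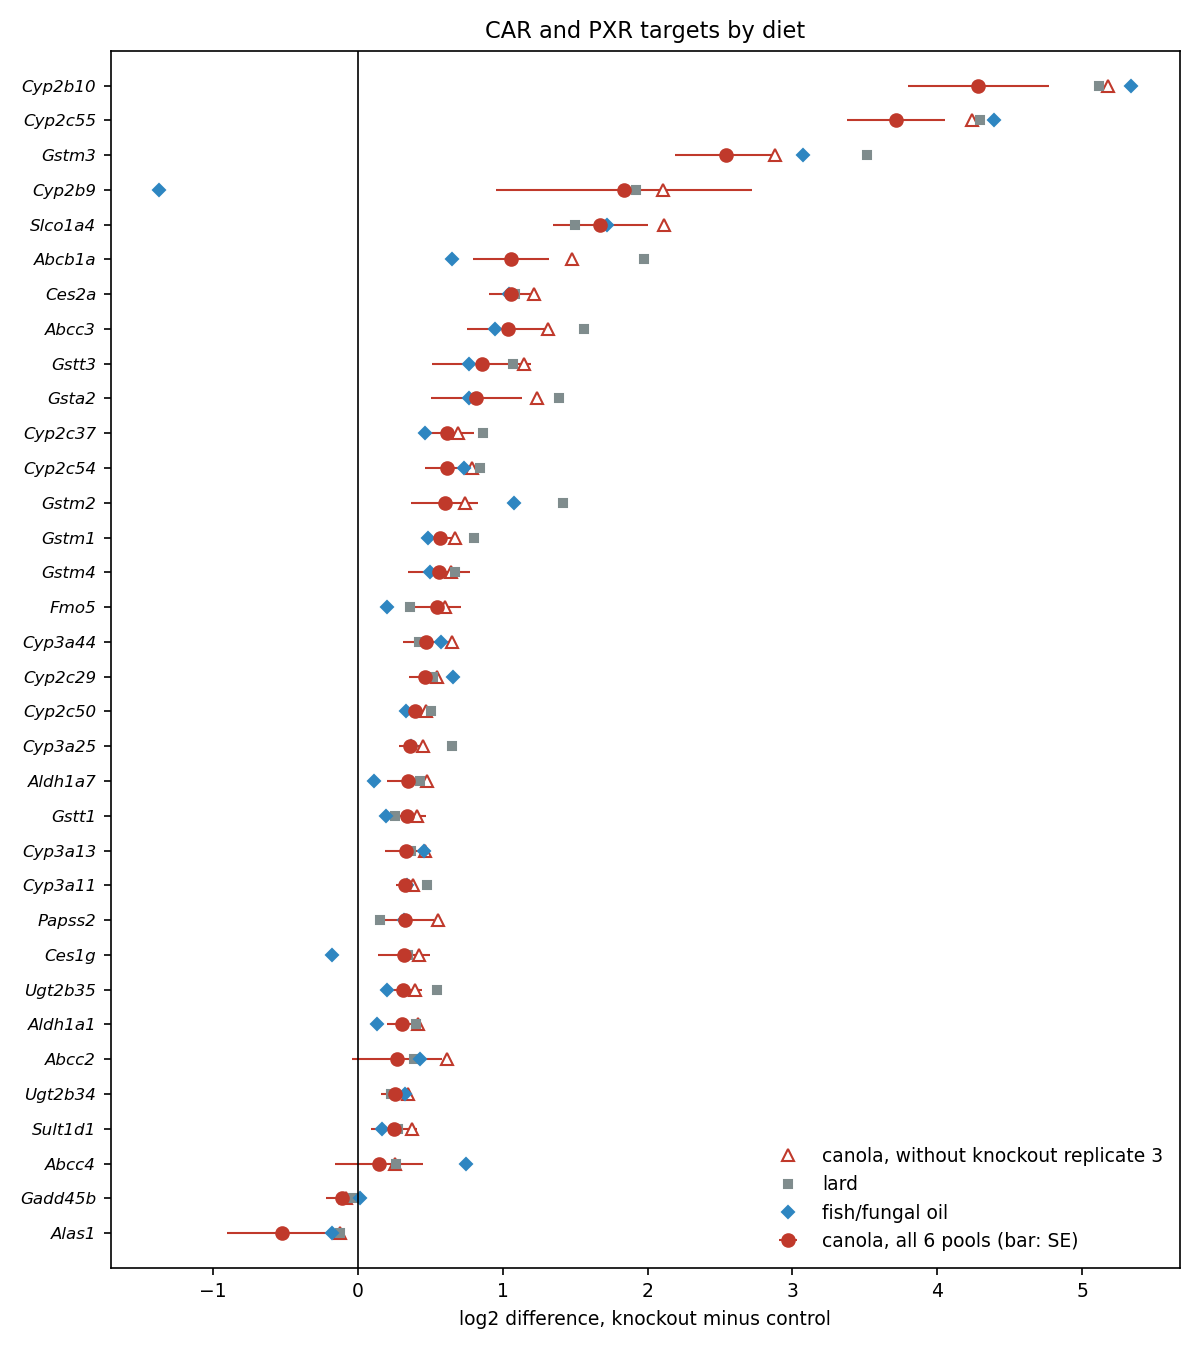
Log2 difference, knockout minus control, of the CAR and PXR targets tested (34 genes) on canola oil with all pools (filled circles, bars are SE), on canola oil without knockout replicate 3 (open triangles), on lard (squares) and on fish/fungal oil (diamonds). Cyp2b10, Cyp2c55 and Gstm3 stand far to the right on every diet, and open triangles lie to the right of the filled circles for all targets shown.

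CAR and PXR bind paired copies of the hexamer AGGTCA or close forms of it. The sequences of the 250 bases before the transcript start of the most changed target genes and of Cyp3a11 were therefore searched on both strands for AGNTCA, and for 2 such hexamers in the same direction 4 bases apart, in which each AGNTCA is also counted singly. The sequences are RefSeq's on mouse build GRCm38.p6, 5′ to 3′ along the gene's strand, with matches in capitals. Cyp2b10 lies at chr7:25897408-25897657 (plus strand), Cyp2c55 at chr19:39006769-39007018 (plus strand) and Cyp3a11 at chr5:145879855-145880104 (minus strand) for the windows shown.
Cyp2b10: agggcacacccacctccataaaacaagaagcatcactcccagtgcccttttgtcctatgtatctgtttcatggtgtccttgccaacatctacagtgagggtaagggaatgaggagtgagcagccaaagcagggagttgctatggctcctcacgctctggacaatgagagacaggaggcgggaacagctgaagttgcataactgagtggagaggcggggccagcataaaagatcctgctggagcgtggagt
Cyp2c55: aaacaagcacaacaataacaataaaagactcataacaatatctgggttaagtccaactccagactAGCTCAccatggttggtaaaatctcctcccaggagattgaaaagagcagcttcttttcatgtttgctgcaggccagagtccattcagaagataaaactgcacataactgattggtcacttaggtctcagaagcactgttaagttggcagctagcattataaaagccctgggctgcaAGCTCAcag
Cyp3a11: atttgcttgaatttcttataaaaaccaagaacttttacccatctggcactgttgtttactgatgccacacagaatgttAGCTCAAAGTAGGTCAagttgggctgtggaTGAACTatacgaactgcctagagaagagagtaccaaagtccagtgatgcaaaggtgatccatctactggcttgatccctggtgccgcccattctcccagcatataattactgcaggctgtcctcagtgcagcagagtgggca

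The window of Cyp2b10 held 0 matches, that of Cyp2c55 held 2 and that of Cyp3a11 held 3, of which 2 formed the spaced repeat. The windows of Gstm3 and Ces2a held 1 match each. The single hexamer was found in 41.3% of 32851 such windows and the spaced repeat in 0.103% (34 windows). The well-known phenobarbital-responsive enhancer of Cyp2b10 lies further upstream than the window searched. A match is a run of letters and not shown to be a binding site.

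For the lists that follow, the shares over all genes were 4.46% higher and 1.68% lower at an unadjusted p below 0.05, and 53.7% above 0. Among other genes of drug and electrophile handling, 10 of the 19 tested glutathione transferases were higher and 1 lower at an unadjusted p below 0.05, with a median of 0.30, and 1 (Gstm3) passed the adjusted test. Of the 29 NRF2 targets tested, 7 were higher and 1 lower by that measure, the median was 0.21 and 1 passed, again Gstm3, so these lists share their called gene. The 32 tested P450s of families 1 to 3 were mixed, with 12 higher and 3 lower at an unadjusted p and a median of 0.14. Of the 9 tested redox partners of P450s, 0 reached an unadjusted p below 0.05. Cyb5a, cytochrome b5, which can hand electrons to some P450s, had 13.71, 13.74 and 13.58 in knockout pools and 13.60, 13.59 and 13.50 in control pools. Cyb5r2, a cytochrome b5 reductase gene, differed by 0.13 ± 0.09.

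Genes stimulated by interferon had a median of 0.25 over 28 tested members, 25 of them above 0. At an unadjusted p 11 were higher and 0 lower, and 0 passed the adjusted test. Unlike the targets of CAR and PXR, their mean log2 level was not lowest in knockout replicate 3, with 8.34, 8.62 and 8.52 in knockout pools and 8.27, 8.24 and 8.20 in control pools. Usp18, which removes the ubiquitin-like protein ISG15, had 9.11, 9.36 and 9.20 in knockout pools and 8.52, 8.74 and 8.41 in control pools (0.67 ± 0.14, adjusted p = 0.093). Gbp3, a guanylate-binding protein gene, had 7.78, 8.11 and 7.93 in knockout pools and 7.66, 7.34 and 7.35 in control pools (0.49 ± 0.11, adjusted p = 0.15).

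Extracellular matrix genes were above 0 in 32 of 34 tested members, with a median of 0.22 and 10 higher and 0 lower at an unadjusted p. Timp1, an inhibitor of metalloproteinases, had 5.22, 5.21 and 5.09 in knockout pools and 4.58, 4.79 and 4.91 in control pools (adjusted p = 0.34), all near or below the array medians. Mmp2, a gelatinase, differed by 0.37 ± 0.12. Markers of stellate cells and fibroblasts, of which the matrix list shares some, had a mean level of 8.13, 8.23 and 7.93 in knockout pools and 7.98, 7.89 and 7.90 in control pools. The part of these cells in the matrix values was not tested.

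Of 32 tested acute phase genes, 7 were higher and 0 lower at an unadjusted p, with a median of 0.09. Orm3, an orosomucoid gene, had 7.80, 7.13 and 7.01 in knockout pools and 6.25, 6.02 and 6.11 in control pools (1.19 ± 0.27, adjusted p = 0.15). Lcn2, lipocalin 2, which binds bacterial iron carriers, had 9.08, 8.73 and 8.00 in knockout pools and 6.88, 7.18 and 6.62 in control pools (1.71 ± 0.47, adjusted p = 0.37). For both genes the groups did not overlap, with knockouts higher, as in 7.04% of all genes. Lcn2 is also a neutrophil marker, and of the 7 neutrophil markers tested 5 were above 0, with a median of 0.08 and 1, Lcn2 itself, higher at an unadjusted p. Their mean level was 6.57, 6.39 and 6.15 in knockout pools and 5.88, 6.17 and 6.05 in control pools.

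Endoplasmic reticulum chaperones were above 0 in 22 of 26 tested genes, with a median of 0.18 and 4 higher and 0 lower at an unadjusted p. Selenos, a selenoprotein of protein quality control, differed by 0.45 ± 0.13, and the chaperone gene Hspa13 by 0.68 ± 0.23. Lysosomal genes were above 0 in 29 of 32, with a median of 0.11. Acp2, lysosomal acid phosphatase, had 8.84, 8.79 and 8.77 in knockout pools and 8.25, 7.99 and 8.35 in control pools (0.60 ± 0.11, adjusted p = 0.065). For this gene the knockout pools, pool 3 included, lay close together. Psap, prosaposin, differed by 0.35 ± 0.11.

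In retinoid metabolism 6 of 20 tested genes were higher and 0 lower at an unadjusted p. Cyp26a1, which breaks down retinoic acid, had 7.34, 8.17 and 7.09 in knockout pools and 6.30, 6.26 and 6.11 in control pools (1.31 ± 0.38, adjusted p = 0.43). Rarb, a retinoic acid receptor gene, had 5.59, 6.05 and 5.69 in knockout pools and 5.25, 4.87 and 5.21 in control pools (0.66 ± 0.20, adjusted p = 0.50). The pools of both genes did not overlap, with knockouts higher, which held for 7.04% of all genes.

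Fewer lists lay below 0. Of the 23 tested genes of cholesterol synthesis and uptake 2 were above 0, against 53.7% of all genes, with a median of -0.14. Their mean level was 8.90, 8.56 and 8.81 in knockout pools and 8.81, 9.06 and 8.94 in control pools. The groups thus overlapped, with knockout pool 2 the lowest. Only 1 of the 23 genes was lower at an unadjusted p, near the 1.68% of all genes. Stard4, a sterol carrier, had 9.49, 9.38 and 9.46 in knockout pools and 9.84, 9.88 and 9.89 in control pools (-0.42 ± 0.15, adjusted p = 0.62), and the sterol enzyme gene Nsdhl differed by -0.53 ± 0.25. Of 26 tested genes known to be higher in male than in female liver, 6 were lower and 0 higher at an unadjusted p, with a median of -0.12. Cyp7b1, an oxysterol hydroxylase, had 11.86, 12.37 and 12.81 in knockout pools and 12.91, 12.89 and 13.20 in control pools (-0.65 ± 0.19, adjusted p = 0.46), with pool 3 nearest the controls. Serpina12, the secreted protein vaspin, differed by -0.94 ± 0.33 with all pools and -1.34 without replicate 3.

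Of 17 tested circadian clock genes, 4 were lower and 0 higher at an unadjusted p, with a median of -0.19. Per1, a repressor of the clock, had 6.85, 6.67 and 6.76 in knockout pools and 7.72, 7.09 and 7.06 in control pools (-0.53 ± 0.19). Ciart, another clock repressor, had 6.22, 5.92 and 6.11 in knockout pools and 7.06, 6.38 and 6.66 in control pools (-0.62 ± 0.25). Control pool 1 was the highest of all 6 for both genes, and the labels used here give no hour of killing. Without replicate 3 the number lower at an unadjusted p was 2.

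Other lists of liver metabolism lay close to all genes. Of 23 genes of glucose metabolism and 36 subunits of the respiratory chain, 0 reached an unadjusted p below 0.05 in either direction. Medians were 0.05 for 35 targets of the fatty acid receptor PPARalpha, -0.05 for 27 genes of fatty acid synthesis and 0.00 for 20 of bile acid synthesis. Ehhadh, of peroxisomal fatty acid oxidation, differed by 0.42 ± 0.19, and Insig2, which holds back sterol-driven transcription, by 0.54 ± 0.21, and neither passed the adjusted test.

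Without knockout replicate 3 the medians of these lists kept their sign where they lay beyond 0.1 on either side of 0. The median became 0.36 for glutathione transferases, 0.23 for NRF2 targets and 0.29 for matrix genes, of which 14 were then higher at an unadjusted p. It became 0.22 for interferon-stimulated genes, with 8 higher, and -0.15 for genes higher in male liver, with 9 lower. Matrix and male liver lists lay further from 0 without the pool and the interferon list nearer to it.

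**Figure D4:**
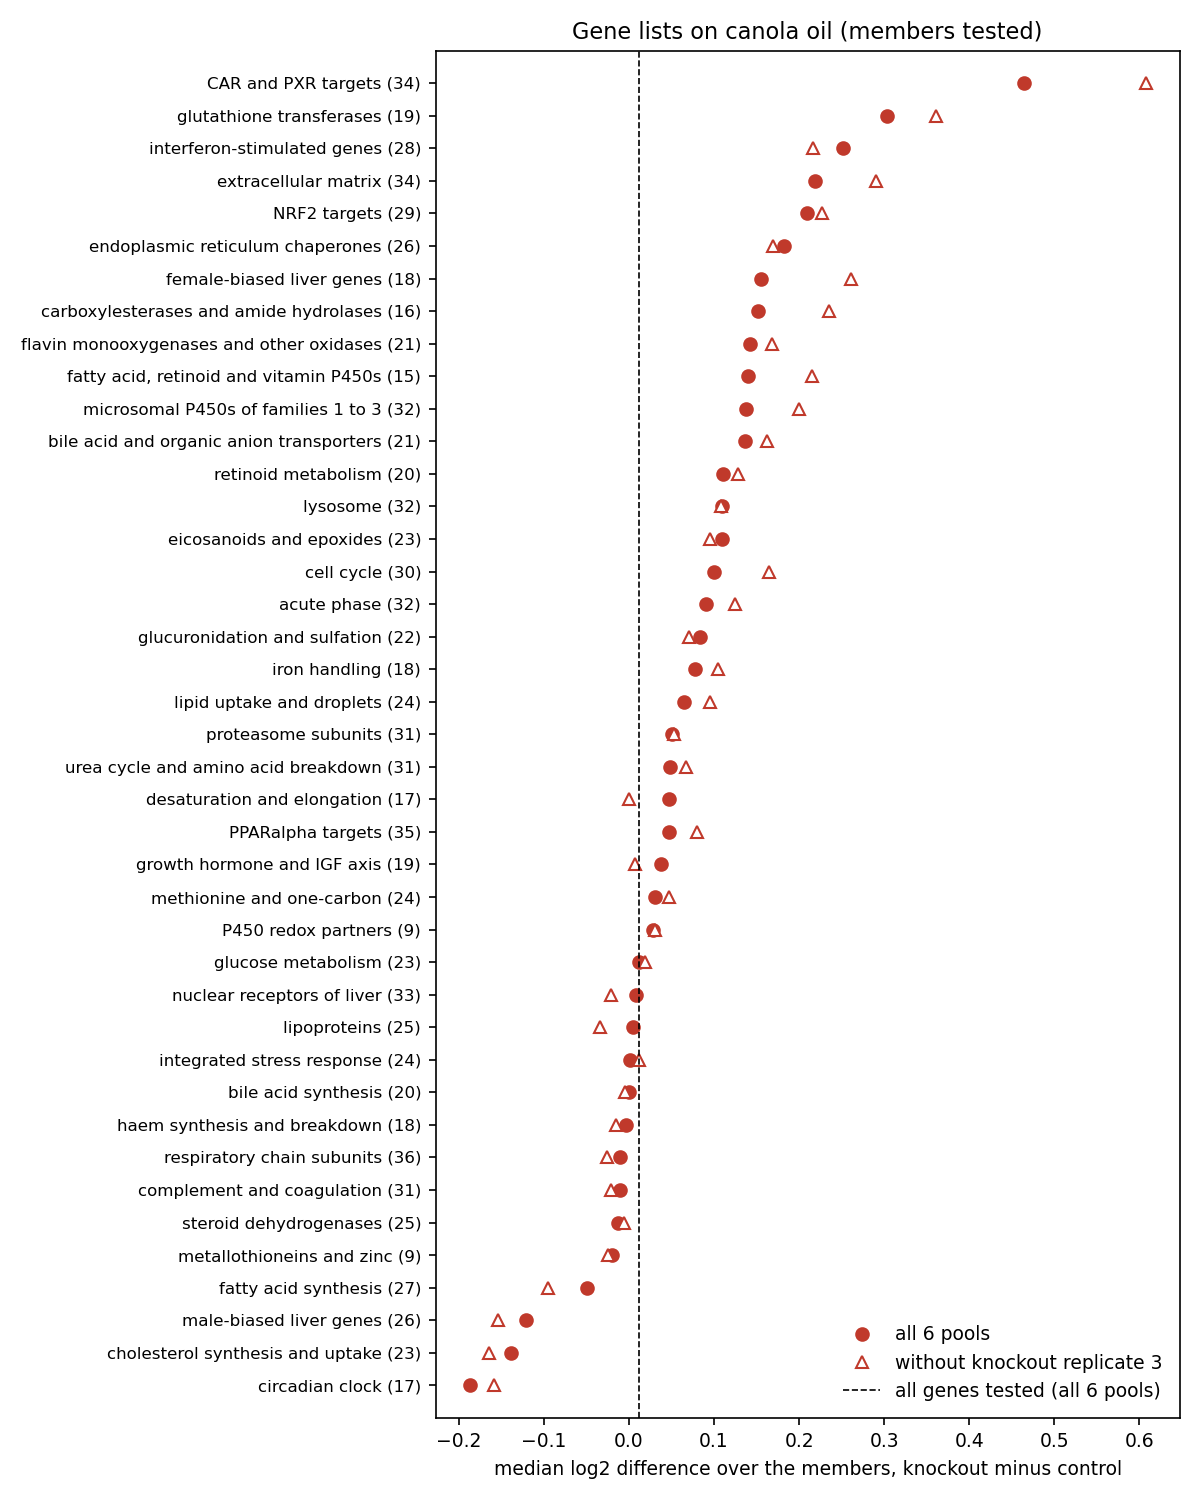
Median log2 difference, knockout minus control, of each of the 41 pathway lists on canola oil, with all pools (filled circles) and without knockout replicate 3 (open triangles); the number in brackets is the number of members tested and the dashed line is the median of all genes. Targets of CAR and PXR lie highest at 0.46 and circadian clock genes lowest at -0.19.

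Hepatocyte markers had like levels in all pools, with means of 13.24, 13.18 and 13.26 in knockout pools and 13.30, 13.06 and 13.27 in control pools, and 0 of 14 reached an unadjusted p below 0.05. Macrophage markers had means of 8.12, 8.40 and 8.10 in knockout pools and 8.14, 7.88 and 7.97 in control pools. Of 29 tested, 25 were above 0, against 53.7% of all genes, with a median difference of 0.16. At an unadjusted p below 0.05, 2 were higher, a share close to the 4.46% of all genes. The 2 were Mpeg1, perforin-2, at 0.36 ± 0.11 and the macrophage elastase gene Mmp12 at 0.96 ± 0.39. Without knockout replicate 3, 27 were above 0 (51% of all genes) and 5 were higher at an unadjusted p (4.65% of all genes). Pancreatic and skeletal muscle markers had median differences of -0.06 and -0.07.

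Genes called for the knockout on the other diets were read in the canola pools, which had no part in that test. A fit of the 12 lard and fish/fungal arrays alone called 279 genes (2.22%), 236 higher and 43 lower in knockouts. In the canola pools 274 of the 279 had the same sign. At an unadjusted p below 0.05, 161 differed in the same direction (57.7%), 147 of the 236 and 14 of the 43, and 0 in the opposite direction. Over all genes the share was 4.46% for higher and 1.68% for lower genes. The canola p-values borrow their spread from all 18 arrays, so they are not wholly separate from the choice of these genes. Signs and medians do not use that spread. The probe set of each gene and the filter on dim genes were set on all 18 arrays, canola pools included. Without knockout replicate 3 the count was 186, 160 higher and 26 lower.

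The median log2 difference of the 236 genes was 0.53 on lard and fish/fungal oil and 0.36 on canola oil, or 0.46 without replicate 3. For the 43 lower genes it was -0.57 on the other diets and -0.34 on canola oil, or -0.58 without replicate 3. Set against the mean of the control pools, the 236 genes had medians of 0.41, 0.50 and 0.21 in knockout pools 1, 2 and 3, and each control pool set against the other controls had 0.07, 0.02 and -0.13. The 43 genes had medians of -0.55, -0.49 and 0.03 in knockout pools and 0.11, -0.21 and 0.18 in control pools. In pool 3, 201 of the 236 genes were above the control mean and 18 of the 43 below it. The pool thus showed the rises at a smaller size and did not show the falls.

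**Figure D5:**
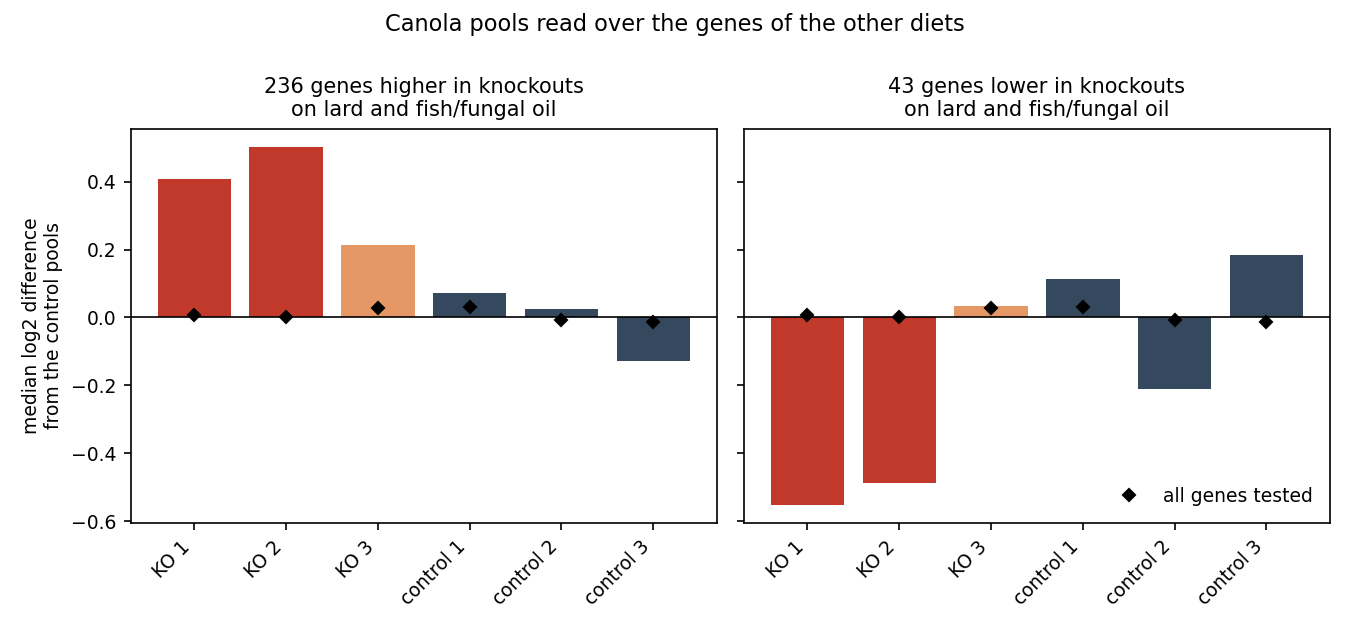
Median log2 difference from the control pools for each canola pool (KO, knockout), over the 236 genes higher and the 43 genes lower in knockouts on lard and fish/fungal oil, with control pools set against the other control pools and black diamonds for all genes. Knockout replicate 3 has 0.21 on the left, between the other knockouts and the controls, and 0.03 on the right, within the range of the controls.

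Whether the knockout difference depended on the diet was asked by testing the canola difference against the mean of the lard and fish/fungal differences. By limma 0 genes passed after adjustment, and 249 had an unadjusted p below 0.05 (1.98%). The count after adjustment was also 0 against lard alone, against fish/fungal oil alone and without knockout replicate 3, where 241 (1.92%), 279 (2.22%) and 225 genes (1.79%) had an unadjusted p below 0.05. The difference of differences was -0.94 for Cyp2b10 (95% interval -2.21 to 0.32), and -0.05 without replicate 3. It was -0.63 for Cyp2c55 (-1.50 to 0.25), -0.76 for Gstm3 (-1.65 to 0.14) and -0.01 for Ces2a (-0.39 to 0.38). Without replicate 3 it was -0.10 for Cyp2c55, -0.41 for Gstm3 and 0.16 for Ces2a. The intervals for Cyp2b10, Cyp2c55 and Gstm3 leave room for differences of more than a log2 unit.

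For Lpl the knockout difference was 0.97 on canola oil, 1.06 on lard and 1.90 on fish/fungal oil, and the difference of differences was -0.51 (95% interval -0.90 to -0.11, adjusted p = 1.00), and -0.30 without replicate 3. Gpc1 differed by -0.69 on canola oil, -0.58 on lard and 0.17 on fish/fungal oil. Its canola knockout pools lay at 6.23 to 6.64, against 7.09 to 7.19 in canola controls, while on fish/fungal oil both genotypes were low, at 6.44 to 6.58 in knockouts and 6.23 to 6.51 in controls. The difference of differences against the mean of the other diets was -0.49 (95% interval -0.77 to -0.21, adjusted p = 1.00). Golm2 differed by 0.86 on canola oil, 0.38 on lard and 0.50 on fish/fungal oil, and by itself passed on neither of the other diets (adjusted p = 0.27 and 0.20).

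The 5 genes with the smallest p in this test, none of which passed, were Susd1, Ndn, Gpc1, 1190005I06Rik and Grifin. Ndn, the imprinted growth regulator necdin, differed by 0.20 on canola oil, -0.20 on lard and -0.17 on fish/fungal oil. For 1190005I06Rik the knockout difference was 0.05 on canola oil, 0.57 on lard and 0.64 on fish/fungal oil, and for Grifin it was -0.33, 0.10 and 0.13. Mt1, a zinc-binding metallothionein gene named after its values were seen, had 10.94, 11.55 and 11.14 in canola knockout pools and 12.07, 11.90 and 11.24 in canola control pools. Its knockout difference was -0.53 on canola oil, 1.28 on lard and 1.14 on fish/fungal oil, a difference of differences of -1.74 (95% interval -2.86 to -0.62) that did not pass adjustment.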

How the data were processed

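RNA pools of 3 livers were hybridised to 1-colour Affymetrix mouse genome arrays. The deposited log2 values of 45101 probe sets were made by the authors with RMA, per the submitters' processing notes, and the log2 scale was read from the values (2.409 to 14.89). Further details of that step are not given in the sources used here. Of these probe sets 34945 had 1 gene symbol, 932 had several and 9160 had none listed in the platform annotation, and 64 array controls were left out. Symbols were updated by gene ID against RefSeq GRCm38.p6, where 34741 probe sets matched. Each of 18193 genes was read from its brightest probe set over all arrays, and the 12578 above the array median in at least 3 of the 18 arrays were tested. Probe sets for Por and probe sets without a single name are not analysed here. Labels do not say that pools with the same number belong together, so they were not paired. Deviations of same-numbered knockout and control pools correlated across genes at -0.066, 0.219 and 0.458. Those of differently numbered pools correlated at -0.38 to 0.282. The highest value was that of the 2 pools numbered 3, and these values do not settle whether same-numbered pools belong together.

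One limma model (limma 3.58.1, R 4.3.3) of 6 group means over 18 arrays, with an intensity trend, gave each difference, and p-values were adjusted by Benjamini-Hochberg over all genes tested. The residual degrees of freedom were 12 and the prior ones 5.2. The script was tested on simulated data. The 3 pools per group limit the precision. Each p-value sets a difference against the spread between pools of a group, estimated over all 18 arrays and not from the canola pools alone. The comparison, the 55 gene lists and the tests were chosen with earlier results of these data known. Named genes are the 12 largest rises and falls past the test with groups that do not overlap, the 6 largest rises and falls that passed only without knockout replicate 3, up to 5 called members of a list or otherwise up to 2 with the smallest p, and the 5 smallest p of the diet test. Other genes are named in the text after their values were seen, among them those used to check other cell types and those described under other observations. Alternatives changed the normalization, centring, filter, probe set rule, variance model, array weights, arrays in the fit, replicate block and pools left out.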

Additional observations from a re-analysis of the deposited data

Results flagged for a closer look

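Susd1, which encodes a sushi domain protein, differed in opposite directions on canola and fish/fungal oil, with every canola knockout pool below every canola control pool and every fish/fungal knockout pool above every fish/fungal control pool. On canola oil it had 6.91, 6.93 and 6.88 in knockout pools and 6.96, 7.21 and 7.25 in control pools (log2 difference -0.24). The canola groups were barely apart, at 6.93 against 6.96. Of all genes tested, 4.24% were lower on canola oil with no overlap of the pools. On fish/fungal oil knockout pools lay at 7.00 to 7.28 and control pools at 6.68 to 6.72 (0.41). The difference between the diets was -0.65, with an unadjusted p of 0.00039 and an adjusted p of 1.00 in limma, so it did not pass over all genes.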

How the results depend on the processing

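The 8 genes of the canola comparison stood at 7 higher and 1 lower. Leaving out 1 canola pool gave 3 to 23 higher and 0 to 5 lower genes. With array weights 81 were higher and 9 lower, all 8 included, and the weights were 2.205 for knockout replicate 1, 0.683 for knockout replicate 3 and 0.539 for control replicate 2. Fitted on the 6 canola arrays alone, 1 was higher and 0 lower. On the canola arrays without knockout replicate 3, a setting chosen after seeing the data, 7 were higher and 0 lower. Of these 7, 4 were among the 8 genes of the main fit. With the filter at the 75th percentile 8 were higher and 0 lower, and 5 of them were among the 8 of the main fit. Gpc1, Golm2 and Rragd did not reach that filter and so were not tested under it. With the replicate number as a replicate block, 8 were higher and 1 lower in the fit of all arrays, and 46 and 6 in the fit of the canola arrays alone. The cause of the other shifts was not tested. Cyp2c55 kept its call under 18 of 18 alternatives, Cyp2b10 under 17, Gstm3 under 16, and Lpl and Ces2a under 14, whereas Gpc1 kept it under 11 of 17, Golm2 under 10 of 16 and Rragd under 8 of 16. Under the alternatives run no called gene changed sign, and the test of canola against the other diets called 0 genes. Genes near the array medians have little room to fall.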

Other observations

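Genes named here were chosen after their values were seen. Among 21 tested transporters of bile acids and organic anions, 4 were higher and 1 lower at an unadjusted p below 0.05, and 0 passed the adjusted test with all pools. Abcc3, an exporter of conjugates from hepatocytes to blood, had 10.58, 10.29 and 9.60 in knockout pools and 9.72, 9.04 and 8.61 in control pools (log2 difference 1.04 ± 0.28, adjusted p = 0.34 in limma). Abcb11, the bile salt export pump, had 11.91, 11.71 and 11.93 in knockout pools and 11.61, 11.23 and 11.67 in control pools (0.35 ± 0.15, adjusted p = 0.73). Slco1a1, an uptake transporter, differed by -0.35 ± 0.20.

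Markers of hepatocytes around the central vein were above 0 in 17 of 23 tested genes, with a median of 0.09 and 5 higher and 0 lower at an unadjusted p, Gstm3 among them. Cyp1a2 had 12.63, 12.53 and 12.65 in knockout pools and 12.40, 11.44 and 12.04 in control pools (0.64 ± 0.19, adjusted p = 0.46), with control pool 2 the lowest. Among genes known to be higher in female liver, Cyp2b10 was the called member of 18 tested, and the list's median was 0.15. Cyp2b9, another of these, had 8.21, 9.08 and 7.82 in knockout pools and 6.99, 7.62 and 5.01 in control pools. Its difference was 1.83 ± 0.88 on canola oil (adjusted p = 0.82) and -1.37 on fish/fungal oil. Sult1e1, oestrogen sulfotransferase, was high in 1 knockout pool, with 6.39, 4.50 and 4.76 in knockout pools and 4.26, 4.18 and 4.24 in control pools.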
